A study of Mus musculus with 2 samples.

Results

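Mitochondrial ribosomal proteins are the proteins of the ribosome that works inside mitochondria. Their messenger RNAs were measured in vesicles shed by cultured mouse CTL, cytotoxic T lymphocytes, whose task is to kill infected and tumour cells. Members were taken as probes whose annotated gene symbol begins with Mrpl or Mrps and a digit, the names of the large and the small ribosomal subunit. This gave 78 of the 19316 genes named on the array, 49 of them Mrpl and 29 Mrps, on 81 of its 23473 probes.

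The vesicles came from medium in which CTL had grown for 7 days. The medium was concentrated by ultrafiltration with a 750 kDa cutoff and run over a DEAE column, a positively charged resin that holds negatively charged particles until salt releases them. One fraction was eluted with 0.5 M NaCl and the other with 0.3 M NaCl, and RNA of each was amplified, labelled with Cy5 and put on a single array. The labels name no strain, genotype, stimulus or number of cultures. With 1 array per fraction there is no replicate, no test and no p-value, so every difference describes these arrays only.

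Mitochondria keep their own ribosome to translate the few proteins of the respiratory chain that the mitochondrial genome encodes. All of its proteins are encoded in the nucleus, made in the cytosol and imported. Part of them descend from bacterial ribosomal proteins, and the rest have no bacterial counterpart and were added in the mitochondrial lineage. Activated T cells enlarge their mitochondria as they divide, and mitochondrial translation is known to matter for their killing.

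The array values are deposited intensities on a linear scale, and some cells are empty, for a reason the sources used here do not give. Of the 81 member probes, 73 (90.1%) had a value on both arrays, against 68.8% of all probes. These covered 72 genes. Mrpl33 had a value at 0.5 M alone, an intensity of 10. Mrpl35 and Mrps34 had a value at 0.3 M alone, of 7 and 18. Mrpl15, Mrpl41 and Mrps2 had none on either array. A second probe of Mrpl48 was empty on both arrays, and a second probe of Mrpl47 was empty at 0.5 M and read 9 at 0.3 M.

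Over probes filled on both arrays the median intensity was 26 at 0.5 M and 32 at 0.3 M. Each array was therefore centred on that median in log2, which removed a shift of -0.30. Differences below are log2 at 0.5 M minus log2 at 0.3 M after centring, so an equal deposited intensity on both arrays reads as 0.30. A gene was called kept if its intensity was no lower than that of the middle gene on one array or both. This held for 58 of the 72 measured members (80.6%) and for 7446 of 13735 genes (54.2%). Of these 58, 55 passed on both arrays and 3 passed at 0.5 M alone, so those 3 had to be higher there.

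Cd8a and Gzmb, which mark CTL, read 2463 and 2838 at 0.5 M, against 3677 and 2493 at 0.3 M, while Cd3e was dim on both arrays. Cd8b1 read 496 at 0.5 M and 333 at 0.3 M, Cd3g 162 and 105, Prf1 26 and 33, and Ifng 238 and 468. Of 7 CTL markers 6 were kept, with a summed intensity of 6237 at 0.5 M and 7121 at 0.3 M. Vesicle markers were weak, and 1 of 3 was kept. Cd81 read 68 at 0.5 M and 51 at 0.3 M, Cd63 12 and 16, and Cd9 12 and 11. Some markers of cells other than CTL were also present. The 4 B cell probes summed to 548 at 0.5 M and 173 at 0.3 M. Cd79b (328 and 94) and Cd74 (188 and 43) carried this, while Cd79a (11 and 15) and Ms4a1 (21 on both) were dim. The 5 probes for macrophages or dendritic cells summed to 942 at 0.5 M and 265 at 0.3 M, carried by H2-Aa (863 and 188). Csf1r (50 and 49), Lyz2 (18 on both) and Itgax (11 and 10) hardly differed, and Adgre1 was empty on both. The 4 red cell probes summed to 7924 at 0.5 M and 17143 at 0.3 M, with Alas2 at 28 on both. The part of these other cells in the results below was not tested. In bulk RNA, fewer vesicles of a kind and less RNA per vesicle cannot be told apart.

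Mitochondrial ribosomal protein transcripts lay mostly on the 0.5 M side, by a small amount, and the large and small subunits did so alike. Among all 72 measured members, 54 had a difference above 0, against 53.8% of all 13735 measured genes. Their median was 0.40, or 1.32-fold, and that of all measured genes 0.05. Of the 72, 16 were at least 1.5-fold higher at 0.5 M (background 17.5%) and 0 at least 1.5-fold lower (background 11.8%). Past 2-fold upward lay 3 (background 5.10%) and past 2-fold downward 0 (background 2.77%). Counts past a fold in the upward direction were thus near the background, and the members differed from all measured genes in how few lay below 0. This was not particular to them. Kept respiratory chain and cytosolic ribosomal protein genes, given further below, had a still smaller share below 0.

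Among the 58 kept members the median was 0.43 and that of all kept genes 0.08. Above 0 were 45 (77.6%), against 55.9% of kept genes. At least 1.5-fold higher were 14 (24.1%), where the background was 18.9%, and 0 were 1.5-fold lower, where it was 11.0%. Past 2-fold upward lay 2, where the background was 5.24%, and past 2-fold downward 0, where it was 2.35%. The kept members spread less than genes at large. Their SD was 0.35 and their quartiles 0.10 and 0.58, against an SD of 0.56 and quartiles of -0.29 and 0.47 for all kept genes.

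**Figure D1:**
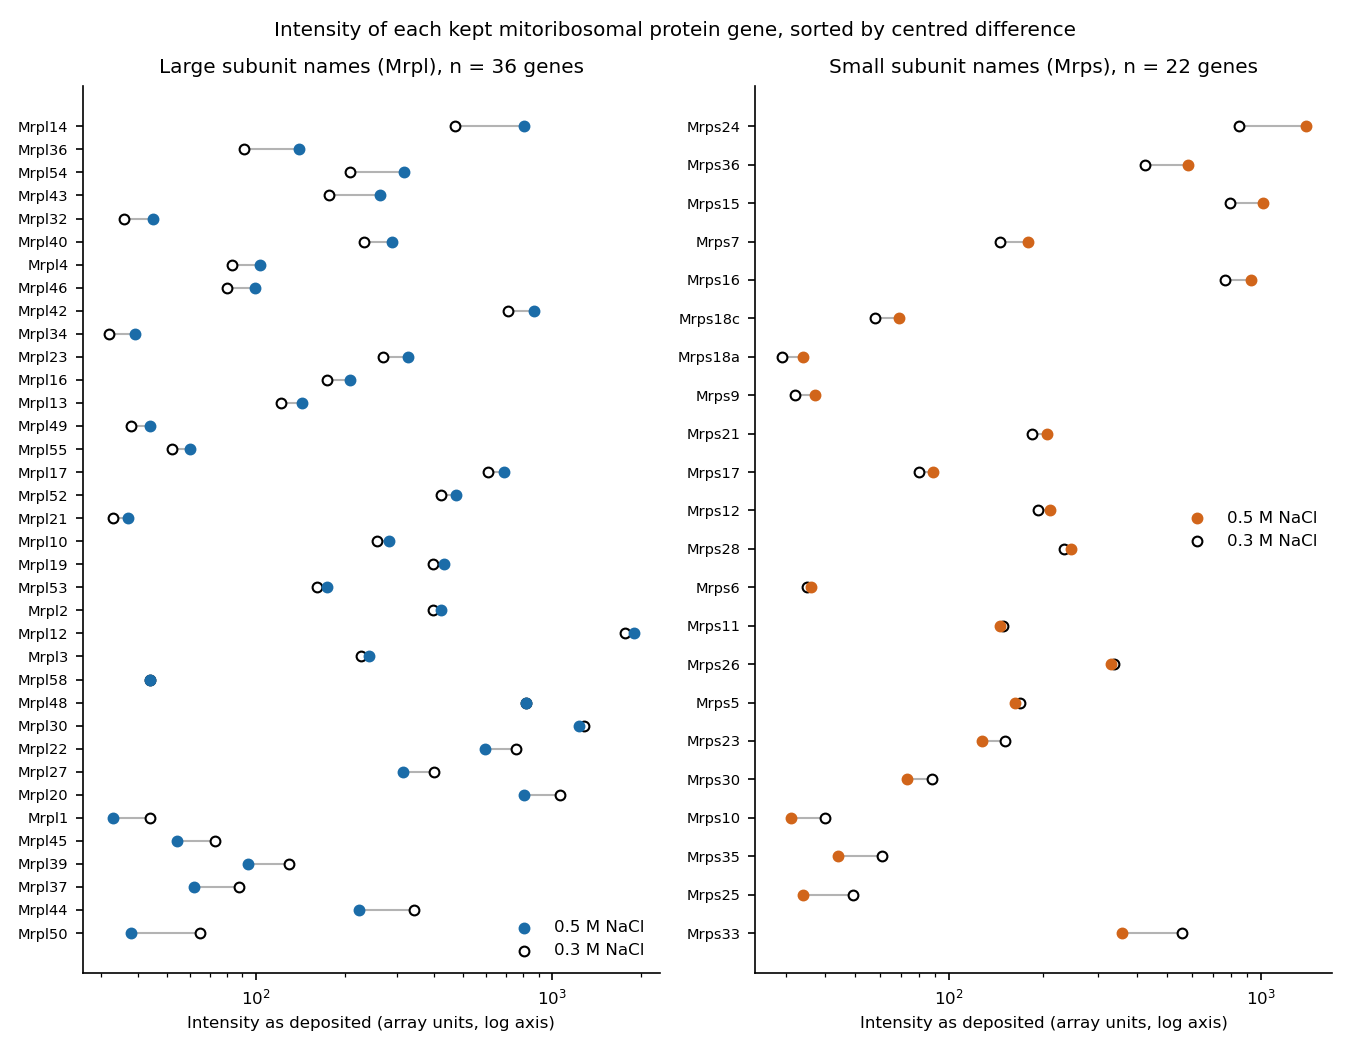
Deposited intensity (array units, log axis) of the 58 kept members at 0.5 M (filled) and 0.3 M (open), Mrpl genes on the left and Mrps genes on the right, sorted by centred difference. Filled points lie to the right of open ones for 37 genes, to the left for 20, and Mrpl58 is equal on both.

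These proportions rest on the scaling. Without centring, 37 of the 58 kept members were brighter at 0.5 M, 20 dimmer and 1 equal, while only 34.4% of all kept genes were brighter there. As deposited, 4 members were at least 1.5-fold higher, where the background was 7.91%, and 3 at least 1.5-fold lower, where it was 24.6%. The distance between the median of the members and that of all kept genes was 0.35 in both settings. It was 0.29 with quantile normalization and 0.25 after removal of a loess trend with level. At least 1.5-fold higher were 6 members with quantile normalization (background 14.0%), 6 with loess (background 13.4%) and 6 with a pseudocount of 20 added to each intensity (background 10.4%). Members past 2-fold upward numbered 0 as deposited (background 1.63%), with quantile normalization (3.25%), with loess (3.10%) and with the pseudocount (1.79%).

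Brightness mattered for this distance, because bright probes as a whole lay on the 0.5 M side. In the brightest of 20 equal bins of probes the median difference of all probes was 0.55, against 0.23 in the next bin, 0.30 in the dimmest, and -0.12 to 0.12 in all others. Kept members were concentrated among bright genes, with 25 of 58 in the brightest of 5 equal bands of kept genes. There the 25 members had a median of 0.42 and the 1464 other genes one of 0.31. In the next band, 13 members had a median of 0.47 against 0.08 for the other genes, and 12 of the 13 were above 0 (57.2% of the other genes). The middle band held 7 members with a median of 0.45 against 0.05. The band below it held 7 members with a median of -0.12 against 0.0026, the only band in which members were lower than the others. The dimmest band held 6 members. Of these, Mrpl34, Mrps18a and Mrps9 passed the filter at 0.5 M alone and so had to be higher there, and the 3 that passed on both arrays had a median of 0.34.

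When the median of all probes of like brightness was subtracted, the members kept a median of 0.23 and the kept genes as a whole one of 0.0061. Above 0 were then 40 of 58, against a background of 50.4%. Past 1.5-fold lay 6 upward and 2 downward, where the background was 13.5% in each direction, and 0 members were at least 2-fold higher (background 3.21%). Across the 58 members, difference and level were weakly related (Pearson's r 0.20, Spearman's rho 0.14), points that share the same 2 arrays.

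**Figure D2:**
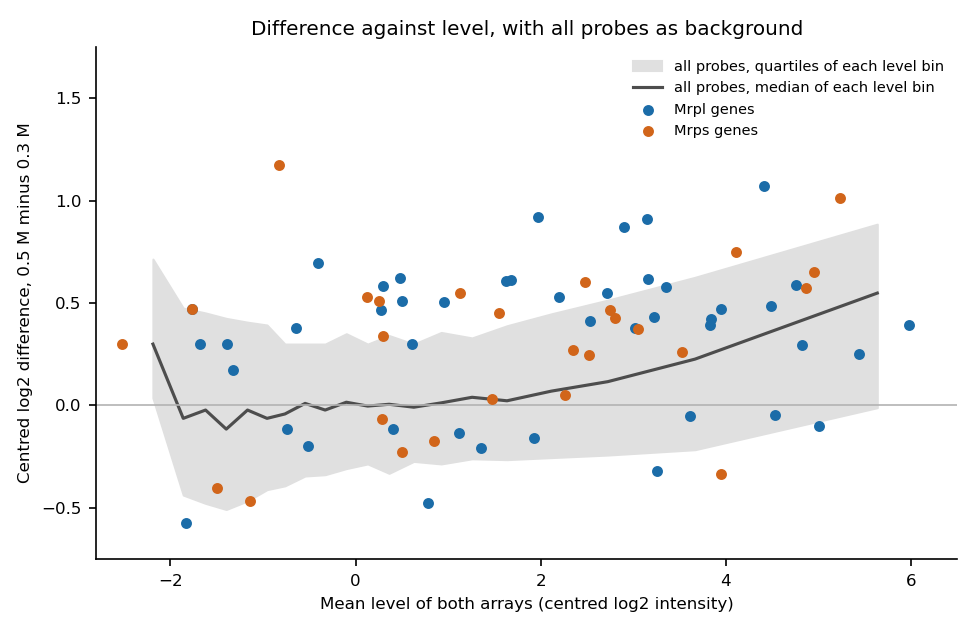
Centred log2 difference (0.5 M minus 0.3 M) against mean level of both arrays (centred log2 intensity) for the 72 measured members, with the median (line) and the range between quartiles (grey) of all probes in 20 level bins. Most members lie above the line, and the line itself climbs at the bright end, to 0.55 in the last bin.

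Differences of single genes were mostly small beside the spread between different probes of 1 gene. The SD between probes of the same gene, with both probes above the filter, was 0.56 over 196 pairs of probes, more than the SD of 0.35 among the members. Nearly all of these pairs belong to other genes, so this SD does not measure the error of a member's own probe. Only 1 member had 2 probes measured on both arrays. Mrps21, the counterpart of bacterial S21, read 46 at 0.5 M and 41 at 0.3 M on one probe and 923 at 0.5 M and 823 at 0.3 M on the other. Both probes gave a centred difference of 0.47, although they differed widely in brightness. After the brightness correction their mean was 0.20. The correction takes more from the brighter probe, so the 2 then no longer matched.

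The large and small subunits were then compared. The 36 kept Mrpl genes had a median of 0.45 and the 22 kept Mrps genes one of 0.40, a gap of 0.05. Above 0 were 27 of the Mrpl genes and 18 of the Mrps genes. At least 1.5-fold higher were 10 Mrpl and 4 Mrps genes (background 18.9%), and 0 of either were 1.5-fold lower (background 11.0%). After the brightness correction, 6 Mrpl and 0 Mrps genes were at least 1.5-fold higher, and 2 Mrpl and 0 Mrps genes at least 1.5-fold lower (background 13.5% in each direction). The SDs were then 0.43 for Mrpl and 0.29 for Mrps. Before the correction the quartiles overlapped almost wholly, at 0.18 and 0.59 for Mrpl and at 0.10 and 0.54 for Mrps. After it they were -0.19 and 0.50 for Mrpl and 0.01 and 0.46 for Mrps. With every measured gene and no filter, the medians were 0.41 over 45 Mrpl genes and 0.37 over 27 Mrps genes.

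The gap stayed small under each scaling and changed sign under one. It was -0.02 with quantile normalization, 0.0013 with loess and 0.06 after the brightness correction. Against all kept genes, the Mrpl median lay 0.37 higher and the Mrps median 0.32 higher, and after the brightness correction 0.25 and 0.19 higher. The names do not match the particle in every case, since Mrps30 and Mrps18a are part of the large subunit in structures of the mammalian ribosome and Mrps36 is a subunit of a ketoacid dehydrogenase complex. With those moved or left out, the medians were 0.45 over 38 large and 0.37 over 19 small subunit genes.

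**Figure D3:**
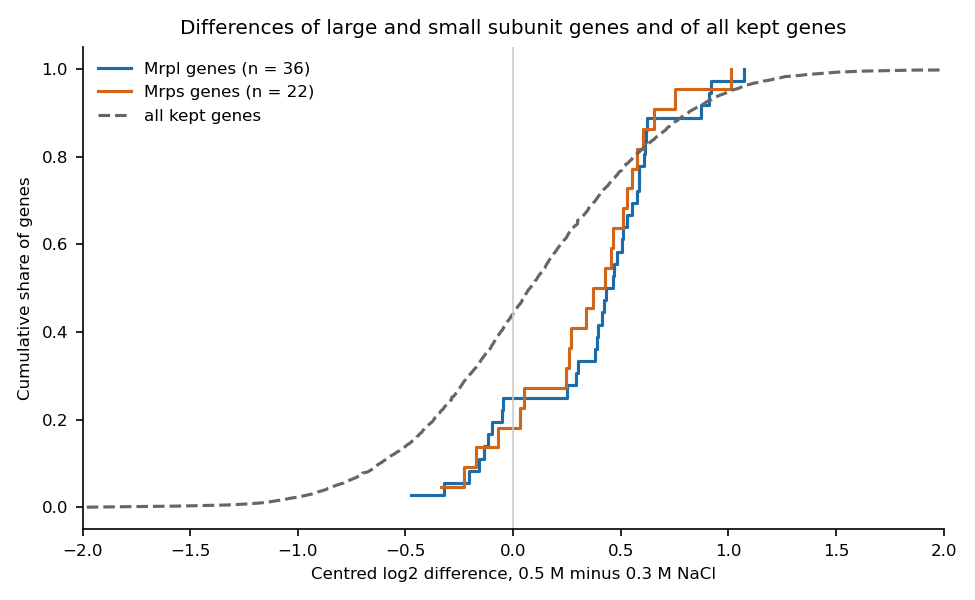
Cumulative share of genes against centred log2 difference (0.5 M minus 0.3 M) for 36 Mrpl genes, 22 Mrps genes and all 7446 kept genes. The curves of the subunits run together, both to the right of the dashed curve over most of the range, and all 3 meet near the top.

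Proteins with a bacterial counterpart had a higher median and a smaller spread than those added in mitochondria. The 36 kept members with a counterpart had a median of 0.47, and 31 lay above 0. The 21 kept members without one had a median of 0.26, with 13 above 0. These counts are 86.1% and 61.9%, against 55.9% of all kept genes, so the second was near the background. The SDs of the 2 classes were 0.28 and 0.42. In the small subunit, 13 of 14 with a counterpart were above 0 (median 0.46), and 2 of 5 without one (median -0.17). In the large subunit, 18 of 22 with a counterpart were above 0 (median 0.47), and 11 of 16 without one (median 0.36). After the brightness correction the medians over both subunits were 0.29 with and 0.0072 without a counterpart. As deposited they were 0.17 and -0.04. Mrpl34, Mrps18a and Mrps9, which passed the filter at 0.5 M alone, all have a counterpart. The filter fixed their direction, so they add to the counts above 0 in that class only. With 5 small subunit genes in one class and no replicate, this contrast was not tested.

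**Figure D4:**
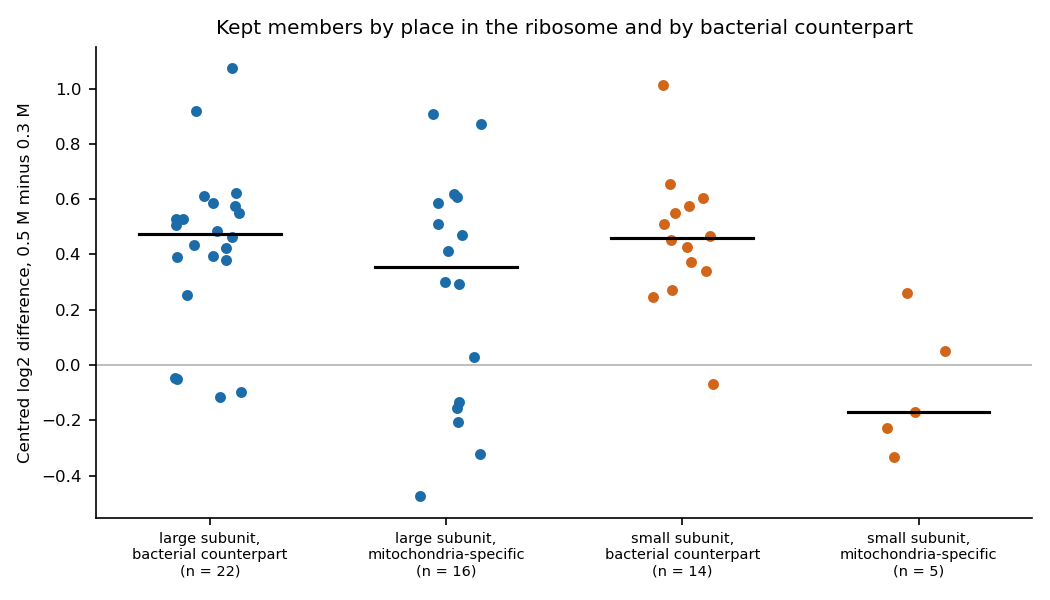
Centred log2 difference (0.5 M minus 0.3 M) of kept members, split by their place in the ribosome structure and by the presence of a bacterial counterpart, 1 point per gene with bars at the medians. All but 1 of the 14 small subunit genes with a counterpart lie above 0, against 2 of the 5 without one (background 55.9%). Mrps9 among the 14, and Mrpl34 and Mrps18a in the large subunit, passed the filter at 0.5 M alone, which fixed their direction.

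The start regions of 6 members are printed to show what lies before genes at either end of the range and before genes with a shared motif. Each is the stretch of 150 bases before the annotated gene start, 5′ to 3′ on the gene's strand, from RefSeq on GRCm38.p6, and none overlaps an annotated gene. Members were shown if they were the 2 highest, the 2 lowest or the 2 highest with the motif among kept genes with such a stretch. Higher members outside that set, Mrpl43 (0.87, with the motif) among them, are not shown. Mrpl34 and Mrps18a, the 2 shown for the motif, passed the filter at 0.5 M alone, which fixed their direction. Capitals mark CCGGAAG, a core bound by ETS factors, which was searched on both strands.
Mrps24 (chr11:5707702-5707851, minus strand, difference 1.01): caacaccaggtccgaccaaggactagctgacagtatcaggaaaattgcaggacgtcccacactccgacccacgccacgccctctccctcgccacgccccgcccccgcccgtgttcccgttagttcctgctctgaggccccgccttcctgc
Mrps36 (chr13:100744660-100744809, minus strand, difference 0.75): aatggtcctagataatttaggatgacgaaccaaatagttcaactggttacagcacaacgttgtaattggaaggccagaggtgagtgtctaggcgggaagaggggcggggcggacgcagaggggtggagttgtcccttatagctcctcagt
Mrps33 (chr6:39810937-39811086, minus strand, difference -0.33): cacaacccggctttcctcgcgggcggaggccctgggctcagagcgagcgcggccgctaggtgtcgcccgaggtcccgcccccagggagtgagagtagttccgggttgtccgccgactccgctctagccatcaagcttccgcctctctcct
Mrps25 (chr6:92184024-92184173, minus strand, difference -0.23): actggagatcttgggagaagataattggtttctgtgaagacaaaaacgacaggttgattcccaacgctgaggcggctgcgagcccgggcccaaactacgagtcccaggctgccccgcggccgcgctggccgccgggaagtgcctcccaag
Mrpl34 (chr8:71464776-71464925, plus strand, difference 0.58): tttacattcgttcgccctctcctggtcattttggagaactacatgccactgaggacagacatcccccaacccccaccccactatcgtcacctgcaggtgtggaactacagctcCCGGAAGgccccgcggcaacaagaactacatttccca
Mrps18a (chr17:46110854-46111003, plus strand, difference 0.53): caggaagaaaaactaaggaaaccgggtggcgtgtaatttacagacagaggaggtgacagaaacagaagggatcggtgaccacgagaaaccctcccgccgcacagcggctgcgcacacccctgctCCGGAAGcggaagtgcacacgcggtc

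RefSeq starts could be matched for 69 of the 78 member genes. The ETS letters stood in 14 of those 69 windows (20.3%), against 5.68% of 27025 windows over all genes and 7.46% of 17491 over protein-coding genes. By subunit they stood in 9 of 43 Mrpl and 5 of 26 Mrps windows. Between the fractions, members with and without the motif were alike in their medians. Kept members with the ETS letters had a median of 0.41 over 11 genes and those without 0.43 over 41. The 11 include Mrpl34 and Mrps18a, whose direction the filter fixed. A match is a run of letters, not a site shown to be bound.

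Among the large subunit proteins, Mrpl14 had the greatest difference of all kept members. It is the counterpart of bacterial L14, at the face that meets the small subunit. It read 802 at 0.5 M and 469 at 0.3 M, a difference of 1.07 or 2.10-fold. Under the other scalings and the pseudocount it ranged from 0.77 to 0.93, below 2-fold in each.

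Mrpl36, the counterpart of the small bacterial protein L36, read 140 at 0.5 M and 91 at 0.3 M (0.92). Mrpl54, a mitochondria-specific protein, read 316 at 0.5 M and 207 at 0.3 M (0.91). Mrpl43, also mitochondria-specific, read 263 at 0.5 M and 177 at 0.3 M (0.87). These 3 stayed at 0.57 or above under every scaling tried and with the pseudocount.

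Mrpl32, the counterpart of L32, which in mouse is matured by the m-AAA protease, read 45 at 0.5 M and 36 at 0.3 M (0.62). Mrpl4, the counterpart of L4, read 103 at 0.5 M and 83 at 0.3 M (0.61). Mrpl42, a mitochondria-specific protein, read 866 at 0.5 M and 710 at 0.3 M (0.59), but only 0.04 after the brightness correction. Mrpl34, the counterpart of L34, read 39 at 0.5 M and 32 at 0.3 M and sat at the 1.5-fold threshold itself (0.58).

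Places in the ribosome were assigned from general knowledge after the values were seen, so the groups below are descriptions. The background for each count above 0 by place is 55.9% of kept and 53.8% of measured genes. The central protuberance crowns the large subunit. Its 4 kept members all lay above 0, with a median of 0.45. Mrpl40 read 288 at 0.5 M and 231 at 0.3 M (0.62), and Mrpl46 read 99 at 0.5 M and 80 at 0.3 M (0.61). Mrpl58, a peptidyl-tRNA hydrolase that is built into the ribosome, read 44 on both arrays (0.30). Mrpl48 read 815 at 0.5 M and 818 at 0.3 M (0.29) and turned to -0.25 after the brightness correction. Of the dim members of this group, Mrpl38 was at -0.20 and Mrpl18 at 0.38.

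The stalk recruits translation factors. Mrpl12, its flexible arm, read 1881 at 0.5 M and 1766 at 0.3 M (0.39, and -0.16 after the brightness correction). Mrpl10, its base, read 282 at 0.5 M and 257 at 0.3 M (0.43). Mrpl11, near the same site, was dim at 6 at 0.5 M and 11 at 0.3 M.

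In the peptidyl transferase region, where peptide bonds are made, 3 of 4 members were above 0. Mrpl16 read 207 at 0.5 M and 174 at 0.3 M (0.55). Mrpl2 read 423 at 0.5 M and 396 at 0.3 M (0.39). Mrpl3 read 240 at 0.5 M and 227 at 0.3 M (0.38). These were close to the median of all kept members, and the remaining one was not. Mrpl27 read 314 at 0.5 M and 400 at 0.3 M (-0.05).

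New chains leave through the exit tunnel. Of its 8 measured proteins, 4 lay above 0 (median 0.13), and of the 6 kept ones 2 did (median -0.09), so the sign of the median turned with the filter. The 2 were Mrpl23, at 326 at 0.5 M and 269 at 0.3 M (0.58), and Mrpl17, at 689 at 0.5 M and 606 at 0.3 M (0.48, and -0.06 after the brightness correction). Mrpl44, which has the fold of a ribonuclease, read 223 at 0.5 M and 343 at 0.3 M (-0.32). Mrpl39 read 94 at 0.5 M and 129 at 0.3 M (-0.16), lower by less. Mrpl45, which anchors the ribosome to the inner membrane, read 54 at 0.5 M and 73 at 0.3 M (-0.14). Mrpl22 read 591 at 0.5 M and 752 at 0.3 M (-0.05), and -0.60 after the brightness correction. The dim members Mrpl24, at 9 at 0.5 M and 8 at 0.3 M (0.47), and Mrpl47, at 9 on both arrays (0.30), lay above 0. Mrpl4, whose bacterial counterpart also lines the tunnel, was not listed there and read 103 at 0.5 M and 83 at 0.3 M (0.61). With it, 5 of 9 measured proteins lay above 0 and the median was 0.30. Mrpl44, Mrpl39, Mrpl45 and Mrpl22 were below 0 under every scaling tried, as were all 13 kept members below 0 after centring.

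Other large subunit members on the 0.3 M side were Mrpl50, Mrpl37, Mrpl1 and Mrpl20. Mrpl50, mitochondria-specific, had the lowest difference of the kept members, with 38 at 0.5 M and 65 at 0.3 M (-0.47). Mrpl37, also mitochondria-specific, read 62 at 0.5 M and 88 at 0.3 M (-0.21). Mrpl1, the counterpart of the movable arm protein L1, read 33 at 0.5 M and 44 at 0.3 M (-0.12). Mrpl20, whose bacterial counterpart helps to assemble the large subunit, read 806 at 0.5 M and 1062 at 0.3 M (-0.10), and -0.65 after the brightness correction. Bright Mrpl30 was near the middle, at 1236 at 0.5 M and 1277 at 0.3 M (0.25).

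Among kept small subunit members, Mrps24 led. It is the counterpart of S3, at the entrance for messenger RNA. It read 1391 at 0.5 M and 848 at 0.3 M, a difference of 1.01 or 2.02-fold, and 0.47 after the brightness correction. Mrps36 read 582 at 0.5 M and 426 at 0.3 M (0.75). The rest of the leading genes were closer to the median. Mrps15, an RNA-binding platform protein, read 1015 at 0.5 M and 794 at 0.3 M (0.65, and 0.11 after the brightness correction). Mrps7, the counterpart of S7 in the head, read 179 at 0.5 M and 145 at 0.3 M (0.60). Mrps16, in the lower body, read 925 at 0.5 M and 764 at 0.3 M (0.58, and 0.03 after the brightness correction). Mrps12, which sits where codons are read, was typical of the whole set with 210 at 0.5 M and 192 at 0.3 M (0.43).

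The 5 platform proteins all lay above 0, at a median of 0.47. The head was mixed, with 3 of 6 kept and 4 of 8 measured members above 0. Mrps33 had the lowest difference of the kept Mrps genes, at 359 at 0.5 M and 557 at 0.3 M (-0.33). Mrps35 read 44 at 0.5 M and 61 at 0.3 M (-0.17), and Mrps10 read 31 at 0.5 M and 40 at 0.3 M (-0.07). In the lower body, Mrps25 read 34 at 0.5 M and 49 at 0.3 M (-0.23) and Mrps26 read 329 at 0.5 M and 338 at 0.3 M (0.26). Mrps33, Mrps35, Mrps10 and Mrps25 were below 0 under every scaling tried, like every kept member below 0 after centring.

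Of all 58 kept members, 35 were above 0 and 13 below 0 under each of the scalings, the pseudocount and the brightest-probe rule, and 10 crossed or touched 0. The same count was not made over all kept genes, so these numbers have no background. Among the 14 dim members, 9 were above 0 and the median was 0.30, the reading of an equal deposited intensity. As deposited, 5 of the 14 were above 0 and the median was 0. The share above 0 among all dim genes was not counted. Mrps18b, a relative of S18, read 22 at 0.5 M and 12 at 0.3 M (1.17, or 0.57 with the pseudocount). At such levels a few units of intensity set the value.

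**Figure D5:**
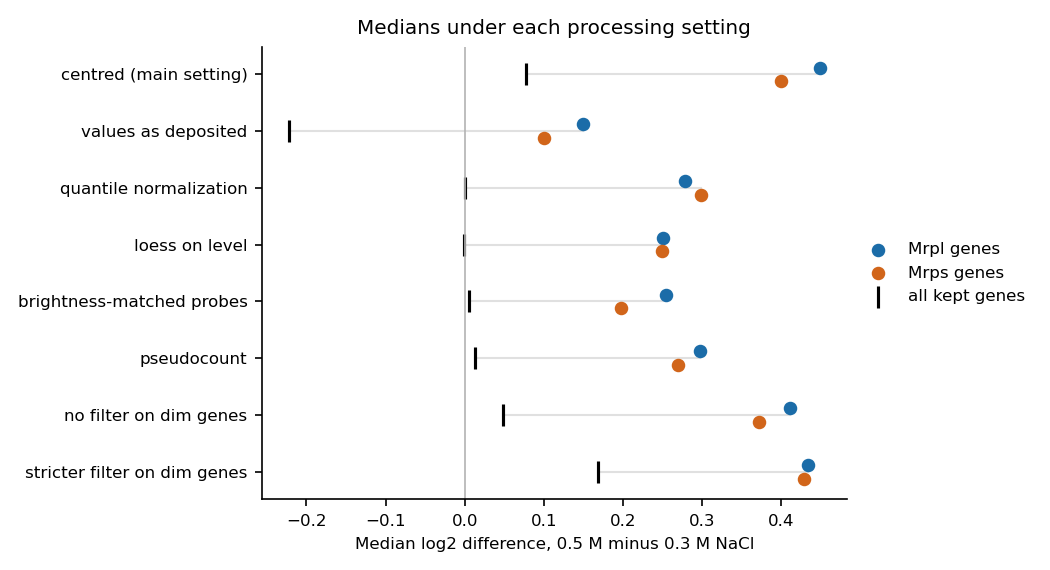
Median log2 difference (0.5 M minus 0.3 M) of kept Mrpl genes, kept Mrps genes and all kept genes under 8 processing settings. Both subunits lie to the right of all genes in each setting and close to each other.

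Other proteins that serve the same ribosome were taken from lists. For kept genes of each list, the background above 0 is 55.9%. Of 4 ribosomal proteins named otherwise, 3 were above 0 (median 0.24). Gadd45gip1, a large subunit protein, read 66 at 0.5 M and 37 at 0.3 M (1.13). Dap3, which binds GTP in the small subunit, read 61 at 0.5 M and 59 at 0.3 M (0.35). Chchd1 read 148 at 0.5 M and 167 at 0.3 M (0.13), and the RNA-binding Ptcd3 was the one below 0, with 28 at 0.5 M and 38 at 0.3 M (-0.14). Factors of mitochondrial translation had a median of -0.15 over 10 kept genes, with 4 above 0, 0 at least 1.5-fold higher (background 18.9%) and 2 at least 1.5-fold lower (background 11.0%). Those 2 were the release factor relative Mtrf1l, at 18 at 0.5 M and 34 at 0.3 M (-0.62), and the initiation factor Mtif2, at 23 at 0.5 M and 43 at 0.3 M (-0.60). Both passed the filter at 0.3 M alone, which fixed their direction. Mtif3 (0.56), among the 4 above 0, passed at 0.5 M alone, which fixed its direction as well.

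Mitochondrial aminoacyl-tRNA synthetases, which load amino acids on tRNA, had a median of -0.03 over 9 kept genes, with 4 above 0. Lars2 read 7514 at 0.5 M and 4392 at 0.3 M (1.07, and 0.53 after the brightness correction). Hars2 read 55 at 0.5 M and 37 at 0.3 M (0.87, and 0.88 after the brightness correction). Assembly factors of the mitochondrial ribosome had a median of 0.31 over 12 kept of 21 measured genes, with 10 above 0 (background 55.9%). Of those that the filter left out, all but Ddx28 (0.30) lay below 0, from Dhx30 (-0.12) to Mrm2 (-1.20). The count above 0 thus rests on the filter. Among the kept ones, the methyltransferases Nsun4 and Tfb1m were at 0.86 and 0.60, Mterf3 at -0.69 and the methyltransferase Mrm3 at -0.64. Transcription and RNA handling genes had a median of 0.36 over 6, with 5 above 0, from Hsd17b10 (1.05) to Trmt10c (-0.82). Mrm3, Trmt10c and the synthetase Pars2 (-0.29) passed the filter at 0.3 M alone. Noa1 (0.45), an assembly factor, and Mterf1a (0.86), among the transcription and RNA handling genes, passed at 0.5 M alone. The filter fixed the direction of each of these genes.

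A pair of larger families with related work was set beside the members. Nuclear-encoded respiratory chain genes, whose complexes also hold the products of mitochondrial ribosomes, had a median of 0.67 over 70 kept genes. Cytosolic ribosomal proteins had 0.65 over 86. Above 0 were 63 of the 70 (90.0%) and 77 of the 86 (89.5%), against 77.6% of kept members and 55.9% of all kept genes. At least 1.5-fold higher were 39 and 47 (background 18.9%), and at least 1.5-fold lower 0 and 2 (background 11.0%). After the brightness correction the medians were 0.23 for mitochondrial ribosomal proteins, 0.29 for the respiratory chain and 0.22 for cytosolic ribosomal proteins. Above 0 were then 40 of 58, 53 of 70 and 60 of 86 (background 50.4%). The median intensity was 498 for the respiratory chain and 3040 for cytosolic ribosomal proteins, and the correction takes the same value from every probe of the brightest bin. The difference between families was not tested.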

How the data were processed

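The authors deposited probe intensities, linear and rounded to whole numbers, for 1 single-colour array per fraction; the labels' protocols give amplification and Cy5 labelling. Not given in the sources used here are the scanner, background correction, normalization and the rule for empty cells. Probes were named by the platform annotation (20690 of 23473 with 1 symbol, 0 with several, 2783 with none), updated through a RefSeq table of GRCm38.p6 (20556 by Entrez identifier, 9 by accession, 125 not matched). No member symbol changed.

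Intensities were log2-transformed, and each array was centred on its median over probes filled on both. Probes of a gene filled on both arrays were averaged. Alternatives were values as deposited, quantile normalization, loess on level (span 0.3), subtraction of the median of all probes in the same of 20 level bins, no or a stricter filter (upper quartile), a pseudocount of 20, and the brightest probe per gene. Steps were tested on simulated data that were brighter and less noisy than these arrays and had no trend with level. That test therefore does not cover the handling of dim genes or of brightness in data like these. Python 3.11.15, pandas 2.3.3 and statsmodels 0.14.6 were used. With 1 array per fraction no test was possible, and the number of arrays limits precision.

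Members and lists were chosen with earlier results of these data known, and places in the ribosome, from general knowledge, and motifs were assigned after the values were seen. Named members were the 10 highest and 10 lowest kept, the 6 brightest of each subunit, those with several probes and those not measured on both arrays. Others were named by place in the ribosome.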

Additional observations from a re-analysis of the deposited data

How the results depend on the processing

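The member median (0.43) was 0.13 as deposited, 0.29 with quantile normalization, 0.25 with loess, 0.23 after the brightness correction and 0.29 with the pseudocount, above 0 in each. Members at least 2-fold higher numbered 2, and 0 under each of those 5 settings. Members at least 1.5-fold higher numbered 14, and 4 as deposited and 6 under each of the other 4. The share of all kept genes at least 1.5-fold higher was 18.9%, and 7.91% as deposited, 14.0% with quantile normalization, 13.4% with loess, 13.5% after the brightness correction and 10.4% with the pseudocount. The cause was not tested beyond what each setting removes by construction. Filters on dim genes and a filter on both arrays, the last chosen after seeing the data, left the median between 0.40 and 0.43. The distance from the median of all genes was 0.36 with no filter but 0.26 with the stricter one, against 0.35 in the main setting. With the stricter filter the median of all genes rose to 0.17. No paired analysis was possible because each fraction has 1 array. Dim probes limit comparison, since a few units of intensity set their difference.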
